A study of Mus musculus with 2 samples.

Results

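The genes described here move lactate and glucose across the membrane of retinal pigment epithelium (RPE) cells. They are 6 of the 27998 genes listed in the matrices and were taken by symbol: the monocarboxylate transporters *Slc16a1* (MCT1), *Slc16a3* (MCT4) and *Slc16a8* (MCT3), their partner *Bsg* (basigin), and the glucose transporters *Slc2a1* (GLUT1) and *Slc2a3* (GLUT3). Single cells came from the RPE of 2 male C57BL/6J mice, R1 and R2, labelled as 4 to 5 weeks old and taken at postnatal day 36, with both eyes of a mouse pooled and cells sorted as calcein-positive and DAPI-negative. There was a single condition, with no treatment or genotype to compare. Each value is a number of unique molecular identifiers (UMIs), which count captured transcript molecules and not amplified copies.

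Cells were split by the share of their UMIs that came from *Ttr*, the gene of the retinol and thyroxine carrier transthyretin, which RPE cells express at a very high level. High-Ttr cells had 5% or more, and low-Ttr cells had less than 3%. After filtering, R1 held 2612 high-Ttr and 59 low-Ttr cells, and R2 held 2828 and 19. No kept cell lay between the limits: the highest low-Ttr cell had 2.66% in R1 and 0.755% in R2, and the lowest high-Ttr cell had 5.18% and 5.14%. The RPE label was checked against 8 markers (*Rpe65*, *Rlbp1*, *Rgr*, *Rdh5*, *Best1*, *Lrat*, *Rrh* and *Otx2*), which summed to 397 and 445 UMIs per 10000 in high-Ttr cells of R1 and R2 and to 37.0 and 25.2 in low-Ttr cells, where *Best1* was at 0. Of the low-Ttr cells, 53 of 59 and 16 of 19 carried at least 3 of 10 markers of the *Pax6*- and *Dkk3*-positive pigment cells that the study described in these same samples. A marked cell also had more genes found from its list than from any other list apart from that of the RPE. Below, cells with the *Pax6* and *Dkk3* markers are those marked by this list, and neither of the named genes was required. The other low-Ttr cells were 2 fibroblast-marked cells in each mouse, 2 and 1 microglia-marked cells, and 2 unmarked cells in R1. The low-Ttr group is therefore a mixture, and it is called by its rule throughout. Of the high-Ttr cells, 2591 of 2612 and 2814 of 2828 were unmarked, and 6 and 1 were marked by the *Pax6* and *Dkk3* list. High-Ttr cells had a median of 8433.5 UMIs in R1 and 7687 in R2 and low-Ttr cells 3200 and 3836. All low-Ttr cells together held 192400 and 91115 UMIs, against 23818284 and 26959166 in high-Ttr cells, and 12 cell barcodes occurred in both mice.

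As background, photoreceptors turn most of the glucose they take up into lactate, and the RPE stands between them and the choroidal blood supply. GLUT1 passes glucose from the blood through the RPE to the retina. MCT1 on the apical side and MCT3 on the basolateral side of the RPE carry lactate, together with a proton, in the opposite direction. Basigin (CD147) is a membrane glycoprotein that MCT1, MCT3 and MCT4 need to reach the cell surface, whereas embigin, the product of the related gene *Emb*, is the usual partner of MCT2. MCT4 is typical of strongly glycolytic cells, and GLUT3 is typical of neurons.

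On GRCm38, *Slc16a1* (ENSMUSG00000032902) lies at chr3:104638668-104658462 on the plus strand and *Slc16a3* (ENSMUSG00000025161) at chr11:120948480-120960868, also on the plus strand. The sense intronic genes *Gm43581* and *Gm43585* overlap *Slc16a1* on the same strand. *Slc16a8* (ENSMUSG00000032988) spans chr15:79251014-79254761 on the minus strand, where the annotation places the protein-coding gene *Gm49486* on the other strand. *Bsg* (ENSMUSG00000023175) is at chr10:79704491-79711969 on the plus strand, with no overlapping gene. *Slc2a1* (ENSMUSG00000028645) occupies chr4:119108711-119137983 on the plus strand. The antisense genes *Gm12867* and *Gm12868* overlap it, as does the microRNA gene *Mir1957a* on the same strand. *Slc2a3* (ENSMUSG00000003153) is at chr6:122727809-122801640 on the minus strand and contains the pseudogene *Gm4482*. The sources used here do not state whether counting used strand. Whether UMIs of *Slc16a8* or *Slc2a1* were kept apart from those of a gene on their other strand is therefore not known here.

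The 2 transporter genes among the members that were lower in low-Ttr cells are shown by the 250 bases before their start in RefSeq (GRCm38.p6). They were chosen because the promoters differed in base composition. RefSeq promoter entries were found for 4 of the 6 members. Both strands were searched for the E-boxes CACGTG and CATGTG, for GGATTA, a site of OTX2-like homeobox factors, and for the GC box GGGCGG, and matches are in capitals. The window of *Slc16a1*, chr3:104638414-104638663 on the plus strand, had a GC content of 76.4% and held CACGTG and GGGCGG, which occurred in 6.02% and 32.7% of 32851 promoters. That of *Slc16a8*, chr15:79254749-79254998 on the minus strand, had a GC content of 58.8% and held none of the 4 motifs, which says only that these letters were not in this window. The windows of *Slc16a3* and *Slc2a1*, not printed here, held GGGCGG and no other of the 4 motifs.
Slc16a1: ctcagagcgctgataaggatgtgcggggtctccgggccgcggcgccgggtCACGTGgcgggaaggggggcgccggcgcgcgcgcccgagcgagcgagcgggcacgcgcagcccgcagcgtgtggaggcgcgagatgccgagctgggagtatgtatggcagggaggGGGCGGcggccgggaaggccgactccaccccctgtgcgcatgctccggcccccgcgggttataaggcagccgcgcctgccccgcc
Slc16a8: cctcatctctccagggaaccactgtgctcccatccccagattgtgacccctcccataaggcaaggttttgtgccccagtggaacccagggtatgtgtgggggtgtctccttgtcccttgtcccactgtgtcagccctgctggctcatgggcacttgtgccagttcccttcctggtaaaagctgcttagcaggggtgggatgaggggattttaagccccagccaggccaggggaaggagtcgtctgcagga

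In high-Ttr cells, 4 of the 6 members were abundant and the other two were at or near 0. *Slc16a8* had more UMIs than any other of the 271 (R1) and 266 (R2) genes named *Slc* that had a UMI, and it took 17.6% and 16.8% of all UMIs of these genes. *Slc2a1* ranked 3rd and *Slc16a1* 6th among them in both mice. *Bsg* ranked 9th in R1 and 11th in R2 among all genes, and *Slc16a8* ranked 23rd and 22nd. Each UMI stands for 1 molecule counted at its 3′ end, so levels were compared between genes without division by length, although capture can differ between genes.

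*Bsg* was found in every high-Ttr cell of both mice. Its level averaged 89.9 UMIs per 10000 in R1 (SD over cells 23.6, 5th to 95th percentile 48.9 to 127) and 88.5 in R2 (SD 21.1, 54.0 to 123). The lowest high-Ttr cell still held 12.5 UMIs per 10000 in R1 and 16.3 in R2.

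The level of *Slc16a8* averaged 32.8 UMIs per 10000 in R1 (SD 12.4, 5th to 95th percentile 14.6 to 54.3) and 30.6 in R2 (SD 11.6, 13.8 to 50.8). It was found in 99.6% and 99.9% of high-Ttr cells, which is 2601 of 2612 and 2825 of 2828 cells. The summed level in R2 was 0.933 times that in R1.

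*Slc2a1* averaged 9.66 UMIs per 10000 in R1 (SD 6.17) and 9.06 in R2 (SD 5.88) and was found in 97.1% and 94.5% of high-Ttr cells. The level of *Slc16a1* was 6.84 (SD 4.95) and 6.54 (SD 5.25), and the gene was found in 92.6% and 87.6% of cells. The order *Bsg*, *Slc16a8*, *Slc2a1*, *Slc16a1* was the same in both mice, and each step in the mean exceeded the difference between the mice. The cells of *Slc2a1* and *Slc16a1* overlapped widely, since the gap between their means was smaller than either SD. There were 2 mice of 1 condition, so no test was made between them.

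*Slc16a3* had 0 UMIs in all 2844 deposited cells of R1 and all 2994 of R2, which allows a share of cells with a UMI of up to 0.105% and 0.100%. *Slc2a3* had 1 UMI in the high-Ttr cells of each mouse and none in low-Ttr cells. These members did not differ from each other at this depth, and neither could be tested for a change.

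**Figure D1:**
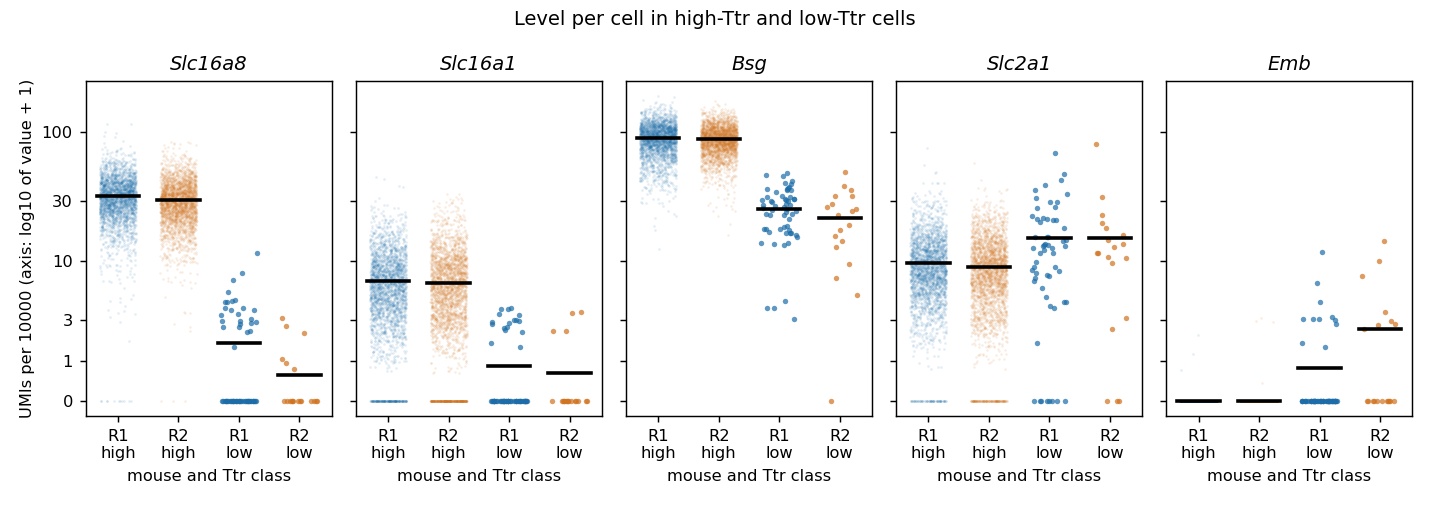
Each point is a cell, with its level in UMIs per 10000 on an axis of log10 of the value + 1, for high-Ttr and low-Ttr cells of mice R1 (blue) and R2 (orange). Black lines are means over cells. *Bsg* lies near 90 in high-Ttr and between 22 and 26 in low-Ttr cells. Of the 59 and 19 low-Ttr cells, drawn without thinning, 25 and 6 had a UMI of *Slc16a8* and 17 and 4 had one of *Slc16a1*. *Slc2a1* was found in most low-Ttr cells, and *Emb* appears almost only there. These are shares of UMIs, and for *Slc2a1* the call depends on the scaling.

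Some of these shares depend on depth, so each cell was thinned to 3000 UMIs, which left out 186 and 192 shallower high-Ttr cells and 24 and 4 low-Ttr cells. At this equal depth *Bsg* was found in 100% of high-Ttr cells of both mice, *Slc16a8* in 99.8% and 99.8%, *Slc2a1* in 90.6% and 87.3%, and *Slc16a1* in 80.6% and 76.8%. In the 35 and 15 low-Ttr cells that remained, *Bsg* was found in 100% and 100%, *Slc2a1* in 94.3% and 93.3%, *Slc16a1* in 28.6% and 6.67%, and *Slc16a8* in 22.9% and 26.7%. The low-Ttr shares of *Slc2a1* thus stood at the level of high-Ttr cells and those of the lactate transporters far under it, with exact 95% Clopper-Pearson intervals for *Slc16a8* of 10.4% to 40.1% in R1 and 7.79% to 55.1% in R2. These intervals cover counting error only.

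The members also differed in how evenly they were spread over high-Ttr cells. In thinned counts, the coefficient of variation beyond Poisson counting was 21.6% in R1 and 19.2% in R2 for *Bsg*, and 27.8% and 30.5% for *Slc16a8*. It was 43.8% and 49.2% for *Slc2a1* and 52.1% and 60.6% for *Slc16a1*. Among the genes whose mean lay within 1.5 times that of *Slc16a1*, 123 of 159 in R1 and 139 of 164 in R2 varied less than it did. The same held for 76 of 114 and 88 of 123 genes around *Slc2a1*, and for 6 of 21 and 14 of 21 around *Slc16a8*.

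*Slc16a8* gave 83.0% of the UMIs of the monocarboxylate transporter members in R1 and 82.2% in R2, with 4.88 and 4.61 UMIs for each one of *Slc16a1*. There were 2.38 and 2.43 *Bsg* UMIs for each transporter UMI of *Slc16a1* and *Slc16a8*, and the mice differed little in this. At least 1 UMI of each of *Bsg*, *Slc16a8*, *Slc2a1* and *Slc16a1* was found in 2372 of 2612 high-Ttr cells of R1 (90.8%) and 2362 of 2828 of R2 (83.5%).

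Within high-Ttr cells, the level of *Slc16a8* was lower where the share of *Ttr* was higher. It averaged 38.9 UMIs per 10000 in R1 and 42.4 in R2 in cells with 5 to 8% *Ttr*, and 33.0 and 32.2 in cells with 10 to 12%. In cells with 16% or more it was 24.3 and 28.2. The lowest of these bins held 139 and 29 cells and the highest 97 and 171, and their median depth was 6754 and 7548 UMIs against 4807 and 7555. *Slc16a1* went from 8.22 and 8.55 to 4.77 and 6.33 over the same bins, and *Slc2a1* from 11.9 and 12.6 to 7.52 and 8.83. *Bsg* showed no such order in R2, with 78.9 in the first bin, 90.2 between 12 and 14%, and 78.3 in the last. *Ttr* itself enters the total by which these levels are divided. With *Ttr* UMIs left out of that total, *Slc16a8* still went from 41.9 and 45.6 in the first bin to 29.3 and 34.2 in the last. *Slc16a1* went from 8.85 and 9.20 to 5.74 and 7.66, and *Slc2a1* from 12.8 and 13.5 to 9.08 and 10.7, whereas *Bsg* went from 96.6 and 84.9 to 100.4 and 94.7. In R2 most of the fall lay between the first bin, of 29 cells, and the next. At 8 to 10% *Ttr* in R2, *Slc16a8* was already at 37.6, *Slc16a1* at 8.17 and *Slc2a1* at 10.5.

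**Figure D2:**
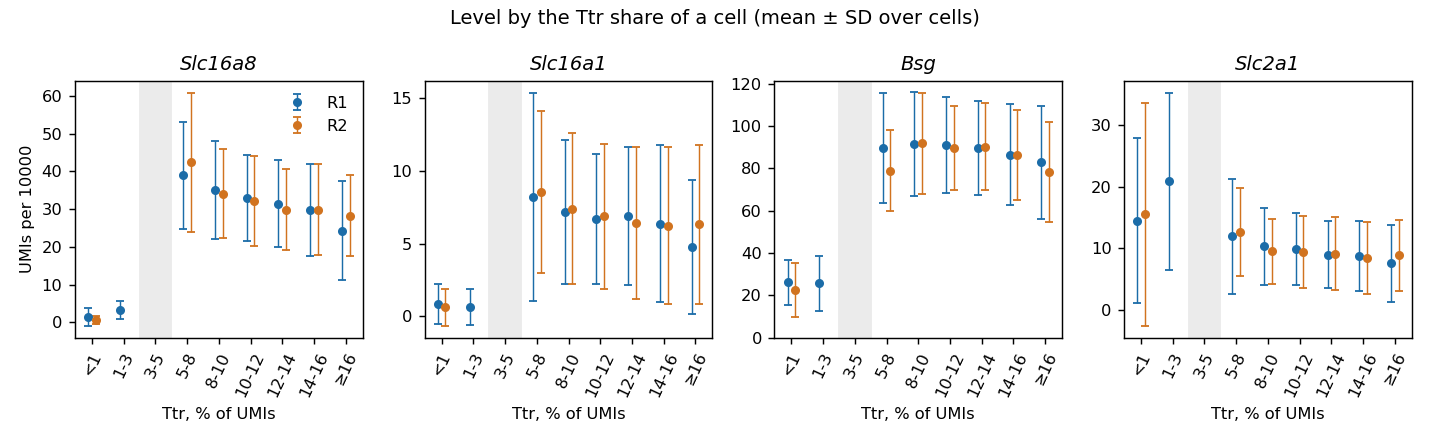
Mean level in UMIs per 10000 (points) with SD over cells (bars) against the share of *Ttr* in a cell, for R1 (blue) and R2 (orange). The grey band, 3 to 5% *Ttr*, held no kept cell. *Slc16a8* was 38.9 and 42.4 in the first bin to the right of the band and 24.3 and 28.2 in the last.

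By depth, high-Ttr cells were split into 3 equal groups of UMIs per cell. *Bsg* averaged 78.9, 92.5 and 98.2 UMIs per 10000 from the shallowest to the deepest group in R1, and 88.4, 83.5 and 93.4 in R2, so a steady rise was seen in R1 and not in R2. *Slc16a8* averaged 32.1, 33.9 and 32.4 in R1 and 30.7, 30.5 and 30.6 in R2. *Slc2a1* fell with depth in R1 (10.8, 9.36 and 8.79) and showed no such order in R2 (8.92, 9.49 and 8.76). *Slc16a1* averaged 7.35, 6.56 and 6.62 in R1 and 5.88, 7.11 and 6.63 in R2.

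Across high-Ttr cells, the members varied together only weakly. Pearson's r of log-transformed levels was 0.21 in R1 and 0.11 in R2 for *Slc16a8* and *Slc2a1*, 0.20 and 0.04 for *Slc16a1* and *Slc16a8*, and 0.16 and 0.08 for *Slc16a1* and *Slc2a1*. *Bsg* was near 0 or below with each partner: r was 0.06 and 0.02 with *Slc16a8*, -0.09 and -0.04 with *Slc16a1*, and -0.10 and -0.03 with *Slc2a1*. After thinning to 3000 UMIs the r of *Slc16a8* and *Slc2a1* was 0.10 and 0.08. These values are descriptions over 2612 and 2828 cells that share library, depth and ambient RNA, and weak values in sparse counts carry no finding.

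**Figure D3:**
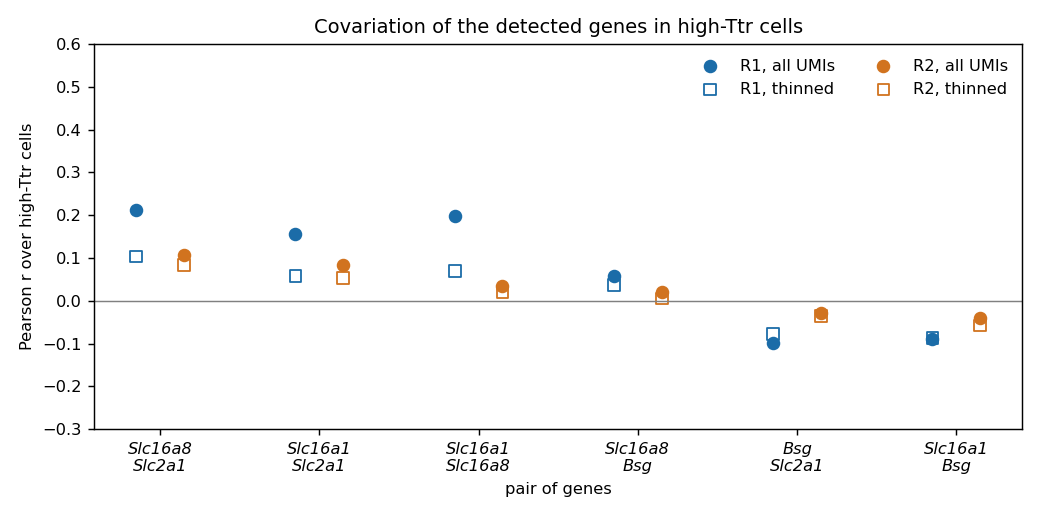
Pearson's r over high-Ttr cells for the 6 pairs of detected members, in R1 (blue) and R2 (orange), from all UMIs (filled circles) and after thinning each cell to 3000 UMIs (open squares). All values lie between -0.10 and 0.21.

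The genes most like each member were taken as those with the highest value of the lower of the 2 mouse correlations, among 5025 genes found in at least 10% of high-Ttr cells of both mice. For *Bsg* this was *Rgr*, the gene of a retinal G protein-coupled receptor of the RPE, with r of 0.56 in R1 and 0.40 in R2 and, after thinning, 0.45 and 0.33. It was followed by *Gpx4*, *Sostdc1*, *Ctsd* and *Clu*, with lower values between 0.18 and 0.26. For *Slc16a8* the list was *Clu* (0.36 and 0.26, after thinning 0.21 and 0.19), *Trf*, *Apoe*, *Psap* and *Ctsd*, genes of secreted and lysosomal proteins. *Slc16a1* was nearest to *Cspg5* (0.19 and 0.14, after thinning 0.09 and 0.06), *Timp3*, *Itgb8*, *mt-Nd5* and *Col8a2*. For *Slc2a1* the list was *Pltp* (0.22 and 0.17, after thinning 0.08 and 0.09), *Malat1*, *Crim1*, *Zbtb20* and, in 5th place, *Slc16a8*. Every r in these lists was lower after thinning, and the places were not ranked anew at equal depth. With *Slc2a1*, the thinned r was 0.02 and 0.03 for *Zbtb20* and 0.10 and 0.08 for *Slc16a8*, so places depend on depth.

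Low-Ttr cells held few UMIs of both lactate transporters, held 27.5% (R1) and 26.1% (R2) of the *Bsg* level, and showed no such loss of *Slc2a1*. Over all genes, 717 of 11482 tested were called lower in low-Ttr cells (6.24%) and 490 higher (4.27%), at a false discovery rate of 0.05 in edgeR's quasi-likelihood test on UMIs summed per mouse. Of the 6 members, 4 had enough counts to be tested: 3 were called lower and 1, *Slc2a1*, was not called. TMM scaling mattered for directions: 40.6% of called genes were higher with it, 73.51% without it and 54.15% in DESeq2. The median of all log2 fold changes was -0.34, 0.37 and -0.34 in these fits. Ratios and percentages of a level use library totals, whereas fitted log2 fold changes use TMM unless stated otherwise. Their sizes therefore differ for the same gene. Low-Ttr cells were also shallower and less numerous, as given above.

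*Slc16a8* had 31 UMIs in low-Ttr cells of R1 and 6 in R2, against 78079 and 82427 in high-Ttr cells. Summed levels were 1.61 and 0.659 UMIs per 10000 in low-Ttr cells, compared with 32.8 and 30.6. Low-Ttr cells were thus at 4.92% of the high-Ttr level in R1 (95% counting interval 3.34% to 6.98%) and 2.15% in R2 (0.790% to 4.69%). The log2 fold change was -5.47 (SE 0.483, Benjamini-Hochberg adjusted p = 3.67e-27 in edgeR). *Rpe65*, the visual cycle isomerase, stood at 5.89% and 1.32%, and *Ttr* itself, on which the groups were made, at 6.50% and 3.12%. At the ratio to *Ttr* seen in high-Ttr cells, low-Ttr cells would hold 41.0 *Slc16a8* UMIs in R1 and 8.70 in R2. These numbers exceed the 31 and 6 found, so removing RNA at that ratio leaves 0 whatever its source. Subtraction of an ambient profile, given below as a setting, left no *Slc16a8* counts in low-Ttr cells and so did not test their source. How much of the *Slc16a8* left in low-Ttr cells was ambient RNA was not tested.

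*Slc16a1* had 17 and 4 UMIs in low-Ttr cells, against 16006 and 17886 in high-Ttr cells. Its low-Ttr level was 13.1% of the high-Ttr level in R1 (7.66% to 21.1%) and 6.62% in R2 (1.80% to 16.9%). The log2 fold change was -3.97 (SE 0.442, edgeR adjusted p = 3.86e-17).

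*Bsg* fell less than the transporters. It had 498 and 215 UMIs in low-Ttr cells, or 25.9 and 23.6 UMIs per 10000 against 94.0 and 90.6 in high-Ttr cells. The 95% counting interval of its low-Ttr level was 25.2% to 30.1% of the high-Ttr level in R1 and 22.7% to 29.8% in R2, and the intervals overlapped. The log2 fold change was -2.64 (SE 0.460, edgeR adjusted p = 3.67e-07). *Bsg* was found in 59 of 59 and 18 of 19 low-Ttr cells. The number of *Bsg* UMIs for each UMI of *Slc16a1* and *Slc16a8* was 10.4 and 21.5, over 48 and 10 transporter UMIs, compared with 2.38 and 2.43 in high-Ttr cells. Of these transporter UMIs in low-Ttr cells, 31 and 6 were of *Slc16a8*, and how many of them were ambient was not tested.

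*Slc2a1* did not share this fall. It had 293 and 148 UMIs in low-Ttr cells, or 15.2 and 16.2 UMIs per 10000 against 9.21 and 8.91 in high-Ttr cells, a ratio of 1.65 in R1 (1.47 to 1.86) and 1.82 in R2 (1.54 to 2.14). Whether that counts as higher depends on the scaling, since edgeR with TMM gave a log2 fold change of 0.05 (SE 0.347, adjusted p = 0.965) and edgeR without TMM gave 0.79 (adjusted p = 0.00402). Relative to the median of all genes it was 0.39 above with TMM and 0.42 above without. All 293 and all 148 UMIs lay in cells with the *Pax6* and *Dkk3* markers, where the mean level was 17.1 UMIs per 10000 in R1 (SD 13.3, n = 53 cells) and 18.4 in R2 (SD 18.4, n = 16 cells). The other 6 and 3 low-Ttr cells held 0 *Slc2a1* UMIs in totals of 18500 and 8772, while they held 30 and 11 UMIs of *Bsg*. Single low-Ttr cells reached 69.2 and 81.6 UMIs per 10000 of *Slc2a1*.

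**Figure D4:**
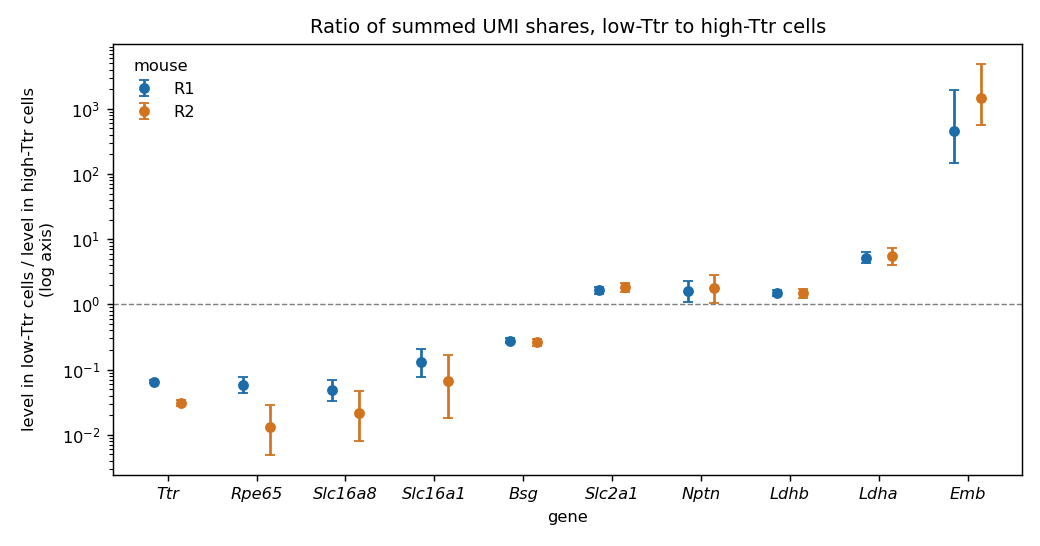
Ratio of summed UMI shares in low-Ttr to high-Ttr cells on a log axis for R1 (blue) and R2 (orange), with 95% counting intervals and a dashed line at equal levels. *Slc16a8* lies with *Ttr* and *Rpe65*, *Bsg* lies near 0.27, *Slc2a1* lies at 1.65 and 1.82, *Ldha* at 5.23 and 5.46, and *Emb* at 464 and 1479. These ratios use library totals, and the fitted direction of *Ldhb* changed with the scaling, and those of *Slc2a1* and *Nptn* changed with other settings, such as no filter on low counts.

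The relatives of basigin behaved differently from it. *Emb* had 15 and 25 UMIs in low-Ttr cells against 4 and 5 in the far larger high-Ttr group. It was found in 11 of 59 and 8 of 19 low-Ttr cells (18.6% and 42.1%) and in 3 of 2612 and 4 of 2828 high-Ttr cells (0.115% and 0.141%). The ratio of summed levels was 464 in R1 (95% counting interval 148 to 1922) and 1479 in R2 (556 to 4948), and *Emb* was called higher in edgeR (adjusted p = 2.21e-21). In R1 14 of the 15 UMIs, and in R2 21 of the 25, lay in cells with the *Pax6* and *Dkk3* markers, and 4 more lay in 1 fibroblast-marked cell of R2. Of the 4 high-Ttr UMIs of R1, 2 lay in 1 high-Ttr cell with the same markers. For each 100 *Bsg* UMIs there were 3.01 and 11.6 of *Emb* in low-Ttr cells and 0.00179 and 0.00205 in high-Ttr cells. *Nptn*, the gene of neuroplastin, which is the third protein of this family, had a ratio of 1.59 (1.08 to 2.27) and 1.78 (1.04 to 2.86) and was not called. Its direction depended on the settings, with adjusted p from 0.226 to 0.993 over the 14 settings of edgeR and DESeq2.

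Around the members, 50 further genes of lactate and glucose handling were listed, of which 31 could be tested. In low-Ttr cells 5 of them were called higher, 6 lower and 20 neither, with a median log2 fold change of 0.22 against -0.34 for all genes tested. Among all genes, as given above, 4.27% were higher and 6.24% lower.

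Of the lactate dehydrogenases, which interconvert pyruvate and lactate, *Ldha* rose. It had 104 and 50 UMIs in low-Ttr cells against 2464 and 2712, a ratio of 5.23 in R1 (4.25 to 6.36) and 5.46 in R2. The log2 fold change was 1.68 (SE 0.357, edgeR adjusted p = 6.80e-05). *Ldhb* was the more abundant of the pair in high-Ttr cells, with 10.4 UMIs per 10000 in R1 against 1.03 for *Ldha*. It had a ratio of 1.50 and 1.47 and was not called, with a log2 fold change of -0.17 with TMM and 0.57 without.

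Of the other monocarboxylate transporters, *Slc16a6* and *Slc16a9* fell and *Slc16a10* rose, and none of these is known as a lactate carrier. *Slc16a6* had 0 and 1 UMIs in low-Ttr cells against 1354 and 1338, and was at least 3.65-fold lower in R1, taking 3 counts as the limit of a 0. *Slc16a9*, a carnitine transporter, had 21 and 9 UMIs against 6072 and 5586 and a log2 fold change of -1.88 (edgeR adjusted p = 0.000219). *Slc16a10*, a carrier of aromatic amino acids, had 4 and 8 UMIs against 2 and 2, so its size is poorly determined. It was not among the genes tested with high-Ttr cells taken from 8% *Ttr* or without the deepest low-Ttr cells. Of the other glucose transporters only *Slc2a12* was called, with 1 UMI in the low-Ttr cells of each mouse against 1101 and 1077, and it lost its call without TMM (edgeR adjusted p = 0.0725) and in DESeq2 (adjusted p = 0.102).

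Lactate leaves the cell with a proton, and genes of pH handling were called in both directions. Of the 3 listed carbonic anhydrases of the cell surface, *Car14* and *Car12* fell, and *Car4* had 0 UMIs in both groups of both mice. *Car14* had 131 and 51 UMIs in low-Ttr cells against 71384 and 77940 (log2 fold change -2.98, edgeR adjusted p = 1.47e-11), and *Car12* had 10 and 0 against 8287 and 8232, at least 9.27-fold lower in R2. The cytosolic *Car2* rose, with 44 and 30 UMIs against 24 and 20, as did the sodium bicarbonate cotransporter *Slc4a4*, with 122 and 34 against 500 and 586 (log2 fold change 3.81, edgeR adjusted p = 5.99e-19). *Slc4a5*, another bicarbonate cotransporter, was called lower (log2 fold change -1.10, edgeR adjusted p = 0.0315) but its call was not stable. It was lost without TMM, with a log2 fold change of -0.37 and an adjusted p of 0.554, in DESeq2 (adjusted p = 0.113), without low-Ttr cells marked as another type (edgeR adjusted p = 0.0665), with only the *Pax6*- and *Dkk3*-marked low-Ttr cells (0.0861) and without the deepest low-Ttr cells (0.0590). None of the mitochondrial pyruvate carriers, hexokinases, pyruvate dehydrogenase kinases or regulators of glucose uptake that were tested was called in edgeR, with 2, 1, 4 and 3 genes tested. None of these 10 passed an unadjusted p of 0.05 in edgeR, and none was called in DESeq2, which gave no adjusted p for *Pdk4* and *Arrdc4*.

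**Figure D5:**
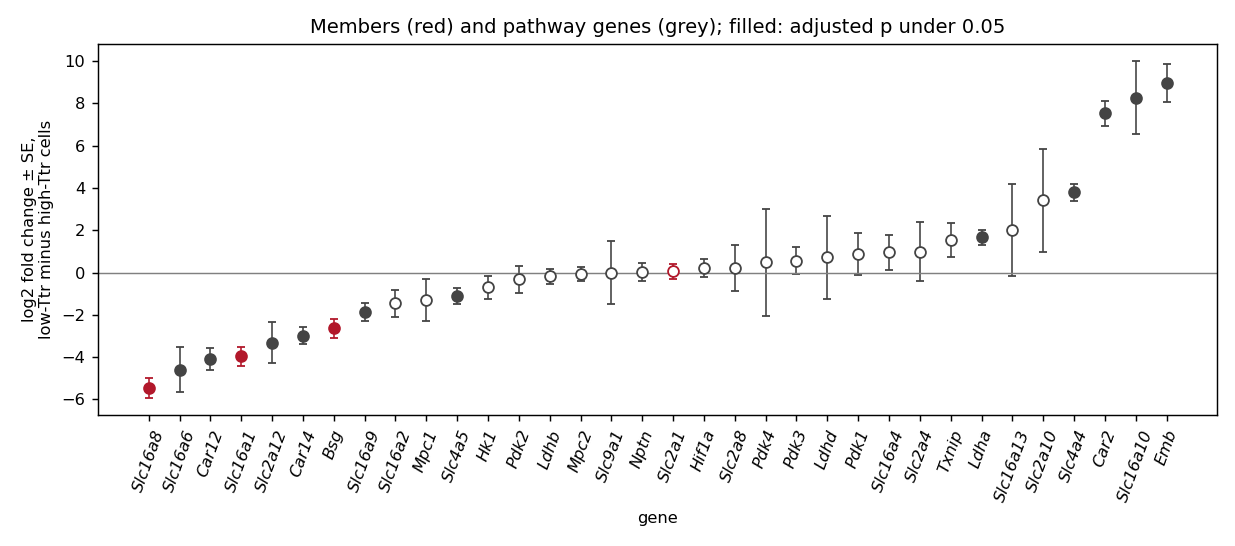
Log2 fold change, low-Ttr minus high-Ttr cells, with SE, from edgeR with TMM for the 4 tested members (red) and the pathway genes (grey), and filled points passed an adjusted p of 0.05. *Slc16a8* stands lowest at -5.47 and *Emb* highest at 8.96, a value that rests on 9 UMIs in high-Ttr cells, while *Slc2a1* at 0.05 was called higher without TMM. *Arrdc4*, with an SE of 9.74, is not drawn.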

How the data were processed

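The authors aligned droplet 3′ libraries of 2 mice to GRCm38 with Cell Ranger 1.2.0 and deposited whole-number UMI counts per gene and cell, before removal of ambient RNA, doublets or low-quality cells. The depth was 26034378 UMIs in R1 and 29732969 in R2, and the counts of the mice differed by more than sampling noise (chi-square 19.6 per degree of freedom over 13384 genes). Here a cell had to have at least 500 genes and at most 5% of its UMIs from mitochondrial genes, which removed 62 and 28. The 4% with the highest score against artificial doublets were also removed (111 and 119). SoupX and DoubletFinder were not used here. Levels are UMIs per 10000. UMIs summed over low-Ttr and high-Ttr cells of each mouse gave 4 libraries, and low and high cells of a mouse were paired by the mouse as a block. These were tested with edgeR 4.0.16 (TMM, filterByExpr, quasi-likelihood, Benjamini-Hochberg over all genes tested) in R 4.3.3. DESeq2 1.42.0 was an alternative. The fit was tested on simulated data. The p-values rest on how far the difference between low-Ttr and high-Ttr cells varied between the 2 mice, with variance estimates that borrow from all genes tested. With 2 mice, they do not measure the spread among mice in general. Analyses of cells used Python 3.11.15, numpy 2.4.6, scipy 1.17.1 and scikit-learn 1.9.0.

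Members and lists were chosen with earlier results of these data known, and the *Pax6* and *Dkk3* marker list came from the study's own marker table. Genes named are the 6 members, called pathway genes with the same direction in both mice, *Emb*, *Nptn*, *Ldha*, *Ldhb*, *Ttr*, *Rpe65*, class markers and the 5 nearest genes of each detected member. Promoters come from RefSeq. For a count of 0, an upper limit of 3 counts was used.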

Additional observations from a re-analysis of the deposited data

How the results depend on the processing

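*Slc16a1*, *Slc16a8* and *Bsg* were called lower in every one of the 14 settings, with log2 fold changes between -4.88 and -3.24, between -18.3 and -4.72, and between -2.94 and -1.90. The extreme value of *Slc16a8* came from subtraction of an ambient profile, which left it at 0 counts. Since its 31 and 6 UMIs are fewer than the 41.0 and 8.70 at the ratio to *Ttr*, that setting was no separate check of *Slc16a8*. With only the low-Ttr cells that carried the *Pax6* and *Dkk3* markers, chosen after seeing the data, 991 genes were called instead of 1207, and no call of a member changed. From 1 mouse alone, under the same scaling, the values were -4.80 to -3.53 for *Slc16a1*, -6.42 to -4.95 for *Slc16a8*, -2.83 to -2.46 for *Bsg* and -0.019 to 0.12 for *Slc2a1*. *Slc2a1* was called higher without TMM (0.79) and changed sign with no filter on low counts (-0.036) and after ambient subtraction (-0.0029), and only the scaling changed its call. *Ldhb* turned to 0.57 without TMM. *Nptn* was negative with no filter (-0.076), with low-Ttr under 2% (-0.11), with doublets kept (-0.030), with no limits on cells (-0.019), after ambient subtraction (-0.022), with *Ttr* UMIs left out (-0.015), and from 1 mouse alone it was -0.050 to 0.071. It reached -0.28 without the 4 deepest low-Ttr cells, a setting chosen after seeing the data; 3 of these cells held 37.2% of the low-Ttr UMIs of R2. Dropping the replicate block raised the count of called genes from 1207 to 2202 and changed the call of no member. In high-Ttr cells, the 4 detected members summed to 156 UMIs per 10000 as a mean of the mice, with *Ttr* left out of the total. For each of these 4 members, the share of high-Ttr cells with a UMI was averaged over the mice. The median of the 4 shares was 89.0% at 2000 UMIs per cell and 97.8% without thinning. The cause of these changes was not tested, except where the setting itself gives it. With 17 and 4 UMIs of *Slc16a1* and 31 and 6 of *Slc16a8* in low-Ttr cells, depth limits how well their remaining level is known. At the ratio to *Ttr* seen in high-Ttr cells, low-Ttr cells would hold 41.0 and 8.70 UMIs of *Slc16a8*. For *Slc16a1* these values would be 8.40 and 1.89, and for *Bsg* 118 and 25.8, against 498 and 215 *Bsg* UMIs found. How much of the remaining level came from ambient RNA was not tested.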

Other observations

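The 9 low-Ttr cells of R1 and 2 of R2 that failed the limits held 10.4 and 29.5 UMIs per 10000 of *Slc2a1* (29 and 19 UMIs), 15.1 and 26.4 of *Bsg*, and 1.80 and 0 of *Slc16a8* (5 and 0 UMIs). Of these cells 5 of 9 and 2 of 2 carried the *Pax6* and *Dkk3* markers. The 50 and 26 high-Ttr cells that failed them held 56.7 and 60.0 UMIs per 10000 of *Bsg*, against 94.0 and 90.6 in the kept cells, while their *Slc16a8* was at 36.1 and 32.3. The 3 UMIs of *Slc2a3* that the comparisons did not use lay in 1 high-Ttr cell of R2 that was removed by its doublet score. No difference among these groups was tested.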
